A study of Homo sapiens with 9 samples.

Results

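The IL-6 cytokine family was followed through A549 lung adenocarcinoma cells before and after transduction with reprogramming factors. The 10 members were chosen by name, as the ligands IL6, IL11, LIF and CLCF1, the receptor chains IL6R, IL6ST, OSMR and LIFR, the transcription factor STAT3 and its feedback inhibitor SOCS3. The choice was made with earlier results of these data known, and the study had itself singled out IL6 from these arrays. Shares of the members set beside those of all probes are therefore descriptive only. They are 10 of the 21743 named genes on the array, and they are read by 21 of its 50599 probes. In each probe result below, the probe's own signal was compared between groups of cells, never with that of another probe.

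Each group was 3 single-colour arrays. Parental A549 is an established human lung adenocarcinoma line, untransduced here, at passages 98, 98 and 99. OSK-A549-Colony and OSK-A549-SN both came from A549 that received OCT3/4, SOX2 and KLF4 from pMXs retroviruses, and both were 7 to 9 passages later than the parental samples. The Colony cells stayed on the dish in trypsin and were picked as colonies, whereas SN denotes spindle-shaped cells from around those colonies that detached into the supernatant. The RNA came from separate transduction experiments according to the study's methods. No array of cells given an empty or EGFP vector was analysed here, and passage number and transduction cannot be told apart in either comparison with parental A549. SN replicate 3 was alone on slide 2 and the other 8 arrays were on slide 1.

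IL-6 family cytokines are secreted ligands that act through receptor complexes built around gp130, the product of IL6ST. IL-6 binds IL6R and IL-11 binds its own receptor chain before gp130 is engaged, whereas LIF signals through LIFR paired with gp130, and OSMR pairs with gp130 to receive oncostatin M. The complexes activate JAK kinases, which phosphorylate STAT3. SOCS3 is induced by STAT3 and blocks the same receptors. In lung adenocarcinoma cells this pathway is known for autocrine growth and survival signalling. RNA arrays read the transcripts of these genes, and not phosphorylation of STAT3 or secreted protein.

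The promoters of IL6 and IL11 are shown because these were the ligands with the largest fitted changes against parental A549. Promoter sequences from RefSeq (GRCh38.p14) were found for 8 of the 10 members. The 250 bases before the start site are printed 5′ to 3′ on the strand of the gene, with motif matches in capitals. They lie at chr7:22726950-22727199 on the plus strand for IL6 and at chr19:55370464-55370713 on the minus strand for IL11.
IL6: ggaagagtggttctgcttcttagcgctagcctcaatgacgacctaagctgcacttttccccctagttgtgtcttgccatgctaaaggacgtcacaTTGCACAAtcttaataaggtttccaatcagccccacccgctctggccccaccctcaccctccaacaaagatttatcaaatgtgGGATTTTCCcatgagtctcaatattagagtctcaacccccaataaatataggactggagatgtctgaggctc
IL11: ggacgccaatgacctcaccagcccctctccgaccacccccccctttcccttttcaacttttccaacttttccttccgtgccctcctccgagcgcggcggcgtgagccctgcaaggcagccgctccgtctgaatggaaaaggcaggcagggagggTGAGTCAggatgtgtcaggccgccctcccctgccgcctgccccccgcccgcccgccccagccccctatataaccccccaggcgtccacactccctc
In IL6 the capitals mark a C/EBP match (TTGCNNAA) at bases -155 to -148 and an NF-kB match (GGNNTTTCC) at bases -72 to -64 from the start. In IL11 they mark an AP-1 match (TGANTCA) at bases -96 to -90. Both strands of the 250 bases before and 50 bases after the start were searched. Over all 35116 promoters of that length, the C/EBP letters occurred in 10.5%, the NF-kB letters in 6.26%, the AP-1 letters in 7.71% and the STAT letters (TTCNNNGAA) in 7.66%. The STAT letters occurred among the members in 2 promoters of LIFR. These matches describe the sequence and do not show that a factor binds there.

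The arrays were alike in scale, with a 75th percentile of intensity between 217.5 and 270.6 and between 25808 and 29315 probes detected. All 6 epithelial marker genes were well above background on every array, and their summed intensity was 389841 to 406217 in parental A549, 366492 to 381856 in Colony and 396905 to 407543 in SN. Within that list CDH1, the adhesion molecule E-cadherin, differed by -0.996 between Colony and parental A549 (SE 0.17, limma adjusted p = 0.0318, under the fold threshold), and KRT19, a keratin, by 1.18 (SE 0.29, limma adjusted p = 0.0625). CDH1 was also lower in SN, with mean log2 levels of 2.43 in Colony, 2.59 in SN and 3.42 in parental A549. For KRT19 the levels were 4.72, 3.50 and 3.55 in that order. In each group, 6 of the 7 fibroblast or mesenchymal stem cell markers lay below that level on every array. On the endothelial list this held for 3 of 5 genes in parental A549 and in Colony and for 2 of 5 in SN, while CDH5 and VWF were above background throughout and differed by 0.33 and -0.47 between Colony and parental A549 (limma adjusted p = 0.287 and 0.116). The summed intensity of the endothelial list was 50.9 to 68.0 in parental A549, 55.1 to 57.3 in Colony and 57.4 to 122.7 in SN. Its 3 tested genes, of which KDR was above background on 1 SN array only, were all lower in Colony than in SN and all higher in SN than in parental A549, with median log2 differences of -0.71 and 0.57, and none were called. Of the 4 leukocyte markers with a probe, 3 were above background on all arrays of each group. Of these, CD68, a lysosomal glycoprotein, was 1.04 higher in Colony than in parental A549 on the log2 scale (SE 0.16, limma adjusted p = 0.0272). Its mean log2 level was alike in the transduced groups, at 1.00 in Colony and 1.00 in SN, against -0.03 in parental A549. PTPRC and CD14 differed by -0.57 and -0.74 between Colony and parental A549 (limma adjusted p = 0.0765 and 0.304), and CD3E passed the background level on 1 parental array and on none of the Colony arrays. The summed intensity of the leukocyte list was 903.9 to 1957 in parental A549, 1064 to 1143 in Colony and 1280 to 1442 in SN. Whether any such cells have a part in the results below was not tested.

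Over the member probes, the ligands IL6 and CLCF1 rose in Colony cells compared with parental A549, and these were the members that passed the test. For IL6 the p-value has a limit that is given below. A probe was called when the limma p-value, adjusted over all tested probes by the Benjamini-Hochberg method, was under 0.05 and the fold change was over 2. In the comparison of Colony with parental A549, 2 of the 20 member probes tested were called, both higher. Across all probes tested, 3.70% were called in either direction and 1.71% were called higher. The member probes had a median log2 fold change of 0.37 and 18 of the 20 were positive, while all probes had a median of -0.03 and 47.2% were positive. IL6ST weighs heavily in these member counts, since 7 of the 21 probes read it.

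**Figure D1:**
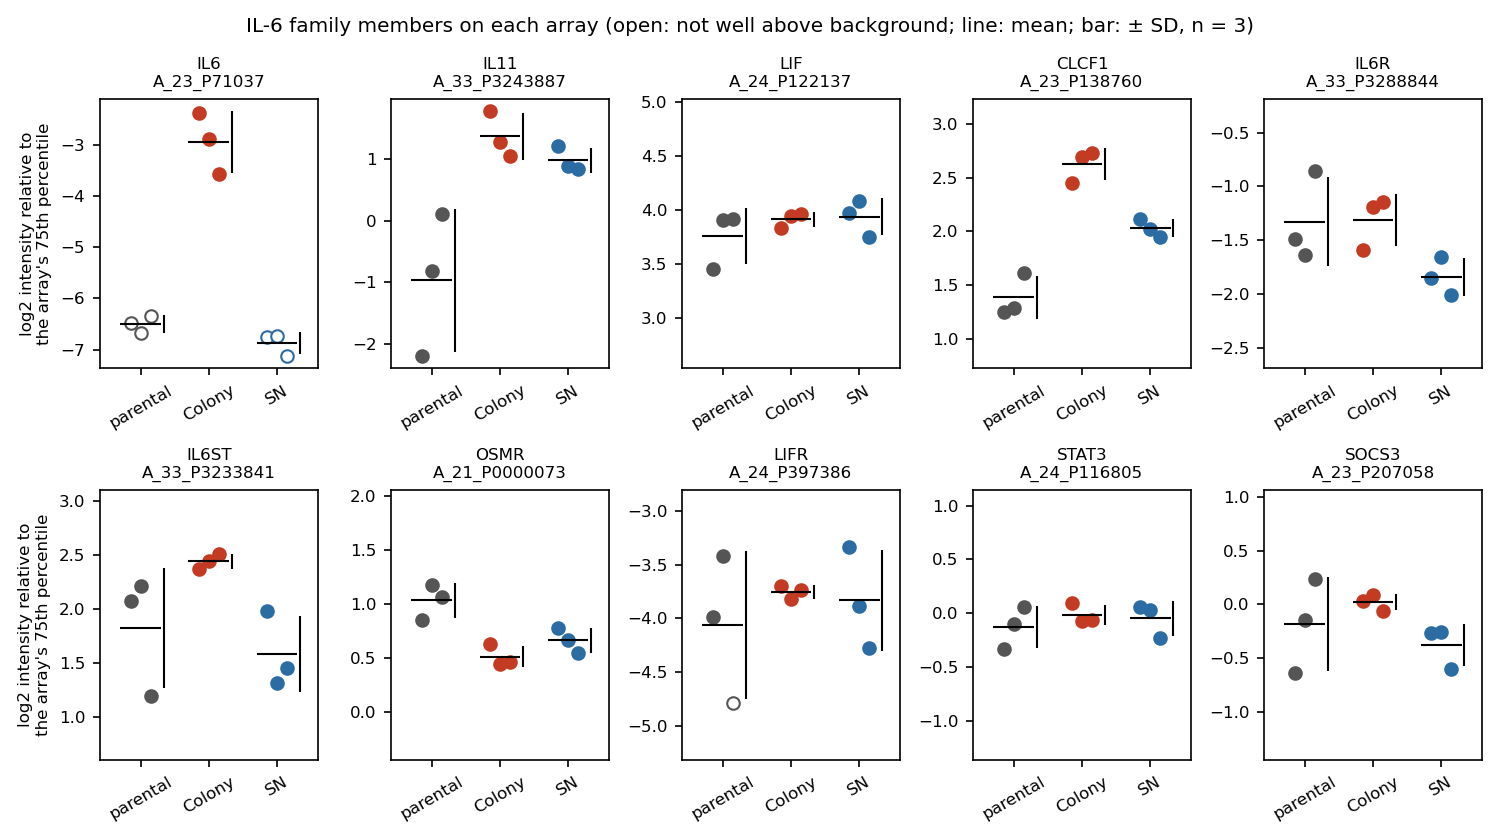
Log2 intensity relative to the 75th percentile of each array for 1 probe of each member gene on the 9 arrays, grouped as parental A549, Colony and SN; each panel has its own vertical range. Filled points are well above background and open points are not, lines are means and bars are ± SD (n = 3). IL6 is above background on the 3 Colony arrays and on no other, and CLCF1 is ordered Colony, SN, parental without overlap.

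IL6 was detected in Colony cells and in neither of the other groups. IL-6 itself is a secreted inflammatory cytokine. Probe A_23_P71037 (NM_000600) gave intensities of 48.8, 31.6 and 20.3 on the Colony arrays 1 to 3. The values were 2.13, 2.05 and 1.94 on the SN arrays and 2.84, 2.46 and 2.68 on the parental arrays. Every Colony array was far above every other array, and the lowest Colony value was well above background while none of the other 6 were. On the log2 scale relative to the 75th percentile, the mean was -2.94 ± 0.61 in Colony, -6.87 ± 0.22 in SN and -6.50 ± 0.17 in parental A549 (SD, n = 3).

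The measured IL6 difference between Colony and parental A549 was 3.56 on the log2 scale (SE 0.32, limma adjusted p = 0.0153). The probe entered the tests through the Colony arrays alone. All parental and SN values were below background, so the SE and p against either group rest in part on floor readings. Because IL6 had only an upper bound in parental A549, it is stated as at least 2.39-fold higher in Colony. Here the mean of the brighter group was set against the lowest level well above background on each dim array. Against SN the measured difference was 3.93 (SE 0.32, limma adjusted p = 0.0930), which was not called, and the bound was at least 3.12-fold higher in Colony. With SN replicate 3 left out, so that all arrays came from slide 1, the difference was 3.81 (limma adjusted p = 0.137).

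The size of the IL6 difference depended on how the background was handled. After normexp correction with an offset of 50, which compresses low signals, it was 0.69 against parental A549 and 0.63 against SN. The first is under the fold threshold, so that IL6 was no longer called (limma adjusted p = 0.0129). The limma adjusted p against parental A549 was 0.0609 without parental replicate 2, 0.0932 without Colony replicate 2 and 0.118 with replicate number as a block. In whole cultures, more cells expressing IL6 and more IL6 RNA in each cell cannot be told apart. The other IL6 probe, A_33_P3407013, is annotated to a predicted transcript, never rose well above background on the 9 arrays and was not tested. Its intensity lay between 2.15 and 3.67.

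CLCF1 was the other called ligand and showed a graded pattern. CLCF1 is a secreted B-cell stimulating cytokine that signals through the receptor for ciliary neurotrophic factor and gp130. CNTFR, the gene of that receptor, was well above background on no array by the probe read here. The CLCF1 probe (A_23_P138760, NM_013246) read intensities of 1371, 1516 and 1597 in Colony, 1004, 885.7 and 1042 in SN, and 606.9, 619.1 and 668.2 in parental A549. The groups did not overlap in any pair, with Colony highest, SN in between and parental lowest. Colony exceeded parental A549 by 1.24 on the log2 scale (SE 0.15, limma adjusted p = 0.0214). Colony exceeded SN by 0.59 (SE 0.11, limma adjusted p = 0.110) and SN exceeded parental A549 by 0.64 (SE 0.15, limma adjusted p = 0.0943), and neither was called. The call against parental A549 was lost when parental replicate 2 or any 1 of the Colony arrays was left out, with adjusted p of 0.0623 to 0.106, although the difference stayed between 1.17 and 1.35 over all 6 leave-one-out fits. It was also lost with replicate number as a block (limma adjusted p = 0.118).

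IL11 was higher in both transduced groups than in parental A549 without passing the test. IL-11 is a cytokine with effects on stromal and epithelial cells, and TGF-beta is among its inducers. IL11 (A_33_P3243887, NM_000641) had intensities of 861.7, 567.6 and 499.8 in Colony and 535.5, 402.7 and 486.1 in SN. The parental values were 55.6, 143.6 and 235.1, and on the log2 scale the SD was 1.16 in parental A549, 0.37 in Colony and 0.20 in SN. No parental array reached any Colony or SN array, while Colony and SN overlapped.

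The log2 difference in IL11 between Colony and parental A549 was 2.34 (SE 0.60, limma adjusted p = 0.0672). Between SN and parental A549 it was 1.95 (SE 0.57, limma adjusted p = 0.133), and between Colony and SN it was 0.39 (95% interval -0.16 to 0.93, limma adjusted p = 0.376). Without parental replicate 3, the brightest of the 3, the difference between Colony and parental A549 was 2.87 and was called (limma adjusted p = 0.0382). Without parental replicate 1, the dimmest, it was 1.72 (limma adjusted p = 0.0574), and without any 1 of the other arrays it was 2.13 to 2.496 with adjusted p of 0.148 to 0.183. It was also called in 3 other settings, after normexp correction (1.83), with the stricter detection filter and with all 9 arrays in 1 fit.

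LIF gave similar values in the 3 groups. LIF is a cytokine known for keeping mouse embryonic stem cells undifferentiated. Its brighter probe, A_24_P122137, read 3584 to 3775 in Colony, 3643 to 3701 in SN and 2796 to 3801 in parental A549. The dimmer probe, A_24_P233488, read 33.8 to 51.7, 41.3 to 44.5 and 26.7 to 42.3 in the same order. All groups overlapped on both probes. The widest 95% interval of the log2 difference was -0.49 to 0.93 for Colony against parental A549 (dimmer probe), and the narrowest was -0.31 to 0.26 for Colony against SN (brighter probe).

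**Figure D2:**
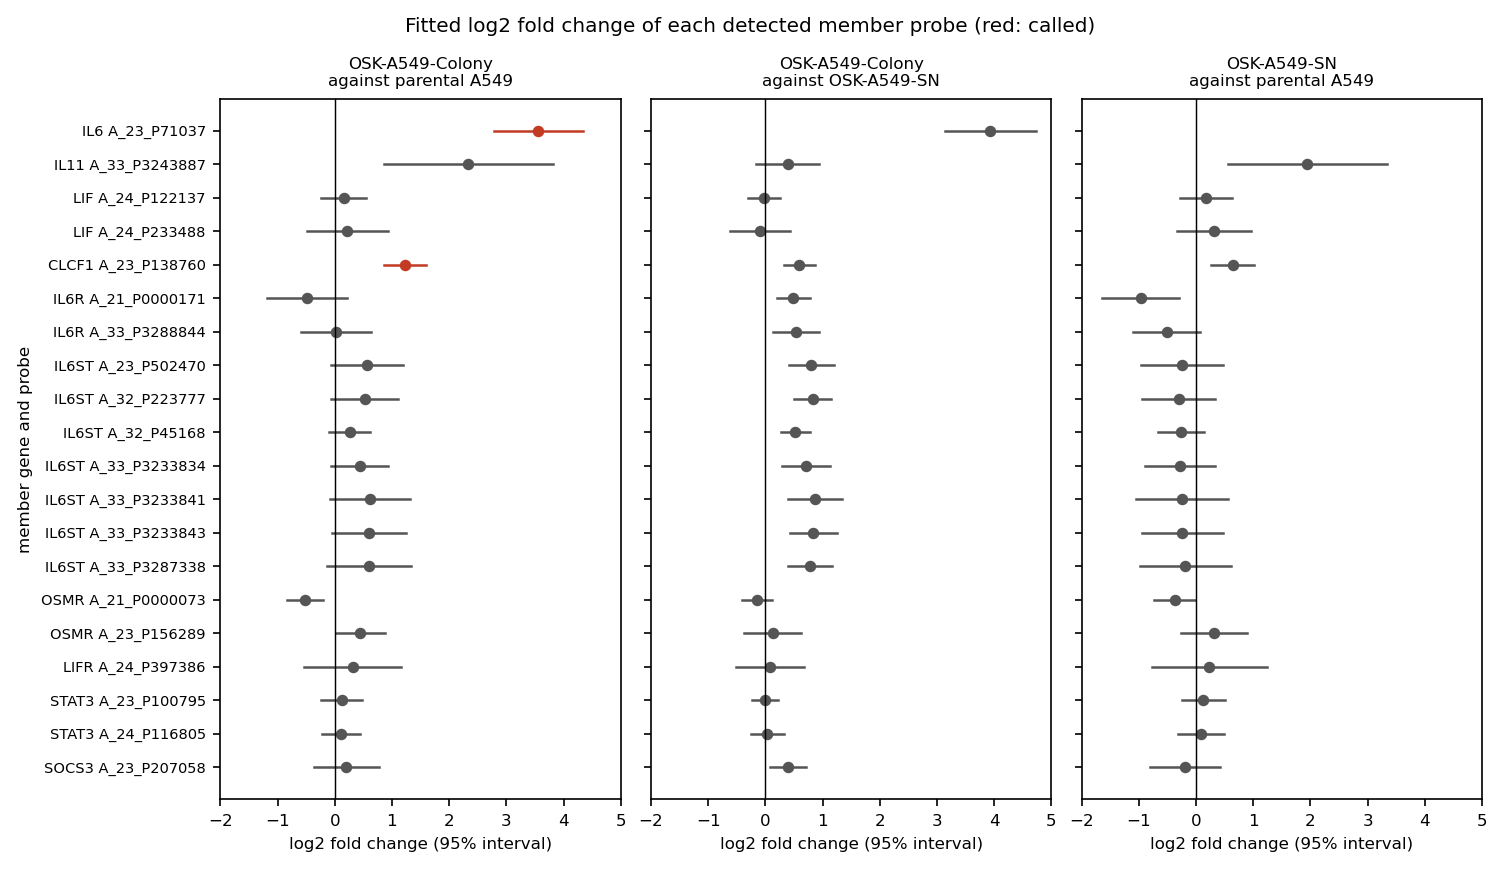
Fitted log2 fold change and 95% interval of each tested member probe (rows) in the 3 comparisons (panels), from limma on the 6 arrays of each comparison; red marks called probes. IL6 and CLCF1 are called in Colony against parental A549, and the 7 IL6ST probes lie between 0.52 and 0.86 in Colony against SN.

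Comparing Colony with SN, no member probe was called, and neither was any of the 31746 probes tested (0%). The smallest adjusted p of all was 0.0930, that of IL6. At an unadjusted p under 0.05, 12 of the 20 member probes were higher in Colony and none were lower, against 8.80% of all probes higher. The same 12 probes were those whose Colony arrays all lay above the SN arrays, which held for 13.5% of all probes. They read 5 of the 10 genes, namely IL6, CLCF1, IL6R, IL6ST and SOCS3, and 7 of the 12 probes are IL6ST probes. The member median was 0.51 on the log2 scale and that of all probes was -0.06.

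Compared with parental A549, Colony arrays were without overlap higher for 10 of the 20 member probes and lower for 1. Over all probes these shares were 20.9% and 20.7%. The 10 higher probes were 6 of IL6ST and 1 each of IL6, IL11, CLCF1 and OSMR, and the lower one was the other OSMR probe.

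IL6ST, which encodes the shared signal-transducing chain gp130, was read higher in Colony than in SN by all of its 7 probes. Probe A_33_P3233841 gave 1296, 1277 and 1378 in Colony, 911.3, 539.6 and 738.5 in SN, and 1070, 1169 and 495.9 in parental A549. Probe A_32_P45168 gave 848.7, 879.7 and 896.5, then 631.1, 504.7 and 676.7, then 806.0, 864.5 and 550.1 in the same order. The Colony arrays were close together on both, whereas parental replicate 3 fell to the level of the SN arrays.

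The log2 difference between Colony and SN was 0.52 to 0.86 over the 7 probes, with limma adjusted p of 0.106 to 0.138. The Colony and SN arrays did not overlap on any of the 7 probes. Across the alternatives the lowest value was 0.36 and the highest was 1.06. Between Colony and parental A549 the differences were 0.26 to 0.62 (limma adjusted p 0.193 to 0.285), and between SN and parental A549 they were -0.30 to -0.19 (limma adjusted p 0.405 to 0.755). Both depended on parental replicate 3. Without it the difference between Colony and parental A549 was 0.13 to 0.32, and that between SN and parental A549 was -0.56 to -0.39. These 7 probes read 1 gene from the same RNA samples and are not 7 independent measurements.

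The probes of IL6ST moved together from array to array. Each probe was centred on its own mean over the 9 arrays. The median over the 7 probes was then 0.39, 0.42 and 0.54 on the Colony arrays and -0.07, -0.61 and -0.36 on the SN arrays. It was 0.12, 0.20 and -0.66 on the parental arrays. SN replicate 2 was among the lowest pair of arrays for all 7 probes and parental replicate 3 for 6, so most of the spread in IL6ST within parental A549 came from 1 array. SN replicate 2 and parental replicate 3 also deviated together from their groups over 24182 probes (r = 0.32 across probes, which are not independent replicates), and the part of that shared deviation in the IL6ST values was not tested.

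**Figure D3:**
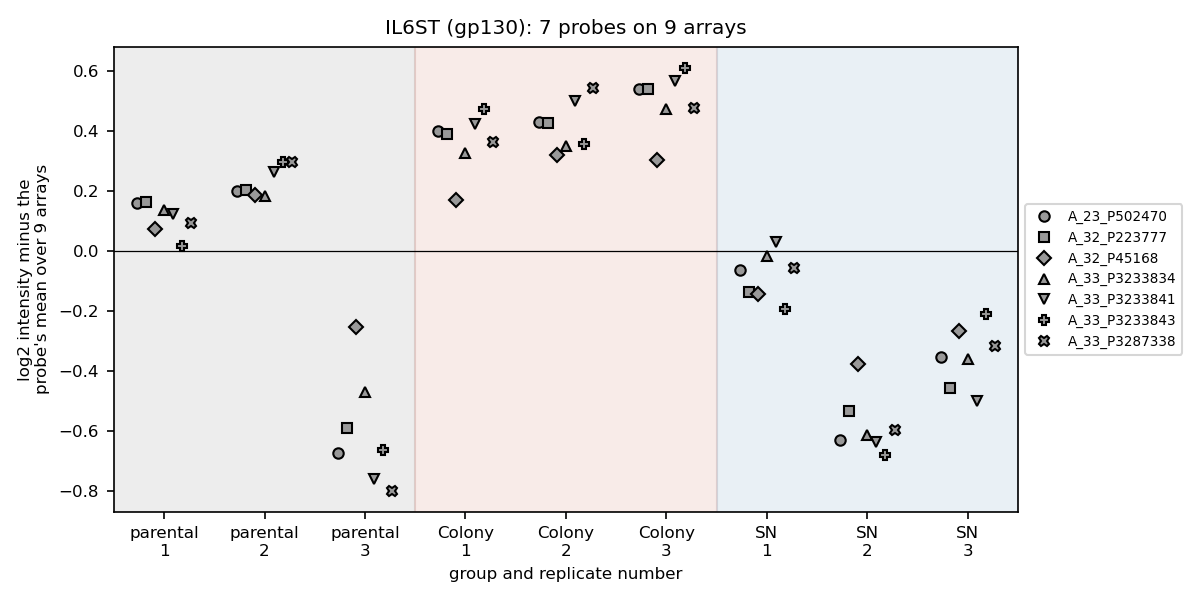
Log2 intensity of the 7 IL6ST probes on each of the 9 arrays, after subtraction of each probe's mean over the arrays; shaded bands mark parental A549, Colony and SN. All 7 probes are above 0 on every Colony array, and parental replicate 3 lies as low as SN replicate 2.

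IL6R, the ligand-binding chain for IL-6, was lowest in SN on both probes. Probe A_33_P3288844 (NM_000565) read 83.5, 102.5 and 109.0 in Colony, 64.0, 69.0 and 67.1 in SN, and 91.0, 81.1 and 120.3 in parental A549. Probe A_21_P0000171 (NM_001206866) read 71.9, 85.9 and 74.7, then 52.0, 48.8 and 63.5, then 78.7, 114.0 and 138.9 in that order. On the scaled log2 values the SN arrays lay below all arrays of both other groups on each probe, while Colony and parental A549 overlapped.

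The log2 differences of IL6R between Colony and SN were 0.53 and 0.49 (limma adjusted p = 0.189 and 0.138). Between SN and parental A549 they were -0.51 and -0.97 (limma adjusted p = 0.285 and 0.124). No probe of IL6R was called in any comparison.

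OSMR, the chain that pairs with gp130 to receive oncostatin M, was read in opposite directions by its probes. A_23_P156289 (NM_003999) gave 237.3, 199.0 and 182.2 in Colony, 231.8, 164.8 and 166.8 in SN and 180.2, 170.7 and 110.0 in parental A549. A_21_P0000073, annotated to another OSMR transcript (NM_001168355), gave 386.7, 319.2 and 332.5, then 396.2, 344.6 and 393.5, then 460.5, 572.0 and 454.5. Relative to parental A549, the Colony arrays were all higher on the first probe and all lower on the second. The log2 differences were 0.44 (SE 0.17, limma adjusted p = 0.157) and -0.52 (SE 0.13, limma adjusted p = 0.0611). No direction for the gene as a whole can be given.

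LIFR, the receptor chain for LIF, was near the background. Its probe read 16.6 to 19.3 in Colony, 14.0 to 22.9 in SN and 7.90 to 23.6 in parental A549, where replicate 3 was not well above background. The groups overlapped, and the log2 difference between Colony and parental A549 was 0.31 with a 95% interval from -0.54 to 1.17.

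STAT3 transcript levels overlapped among the 3 groups. Probe A_24_P116805 read 223.6 to 267.6 in Colony, 222.8 to 241.5 in SN and 202.1 to 235.3 in parental A549. Probe A_23_P100795, spotted 10 times on each array, read 94.5 to 117.4, 92.9 to 115.3 and 92.6 to 102.9. The log2 differences of these probes were 0.11 and 0.12, in that order, for Colony against parental A549, with 95% intervals that together ran from -0.24 to 0.48. For Colony against SN they were 0.03 and -0.0044, with intervals that together ran from -0.26 to 0.32. Differences within these intervals were not resolved with 3 arrays a group.

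SOCS3 was modestly higher in Colony than in SN without being called. Its intensities were 255.7, 249.8 and 231.8 in Colony, 192.8, 181.6 and 178.8 in SN and 163.8, 228.7 and 256.1 in parental A549. All Colony arrays lay above all SN arrays, while the parental arrays spanned both. The log2 difference between Colony and SN was 0.39 (SE 0.12, limma adjusted p = 0.197), and between Colony and parental A549 it was 0.20 (95% interval -0.37 to 0.78).

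Between SN and parental A549, none of the 19 member probes tested were called by limma, against 1.55% of all probes. At an unadjusted p under 0.05 there were 4, and 21.6% of all probes passed that level. The SN arrays were without overlap higher for 2 member probes, those of IL11 and CLCF1, against 16.8% of all probes. They were lower for 3, both IL6R probes and OSMR A_21_P0000073, against 15.2% of all probes. These shares of the members were near or below those of all probes, and the member median was -0.19 against 0.08.

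The other genes of the pathway were grouped into lists, with 1 probe a gene. Over all genes read this way, 3.91% were called in Colony against parental A549 with a median log2 difference of 0.03, none were called in Colony against SN with a median of -0.03, and 1.64% were called in SN against parental A549 with a median of 0.09. At an unadjusted p under 0.05, 32.6%, 20.8% and 22.5% of genes passed in these comparisons. The comparisons share arrays and are therefore not independent of each other. No probe at all was called in Colony against parental A549 without Colony replicate 2, or in SN against parental A549 without SN replicate 1 or 2. With replicate number as a block, no probe was called in any comparison. The calls of listed genes below are lost there too.

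Among the other ligands and soluble partners, OSM fell in Colony against parental A549. OSM encodes oncostatin M, the ligand of OSMR. It was well above background on 2 of the 3 parental arrays and on no Colony array (limma adjusted p = 0.0435). Set against the background level as for IL6, it was 1.59-fold lower in Colony. Because the parental mean includes an array not above background, this is not a strict lower bound. None of the other 5 genes tested in that list were called, and the list median was 0.10. CTF1, a ligand in that list, had its largest difference, -1.71 between Colony and parental A549 (limma adjusted p = 0.0567). It was above background on 1 parental array and on no Colony array. EBI3, a subunit of IL-27, differed by 0.38 between Colony and parental A549 (limma adjusted p = 0.242) and by 0.93 between SN and parental A549 (limma adjusted p = 0.0914). CNTF, a neurotrophic member of the family, differed by 0.81 between Colony and parental A549 (limma adjusted p = 0.234), but only 1 of 3 parental arrays was well above background. Between Colony and SN, EBI3 differed by -0.55 and CNTF by 0.48 (limma adjusted p = 0.144 and 0.206). IL27, the other IL-27 subunit, differed by 0.50 between SN and parental A549 (limma adjusted p = 0.415), again with 1 of 3 parental arrays above background. The receptors IL11RA and IL27RA differed by -0.51 and 0.39 between Colony and parental A549 (limma adjusted p = 0.102 and 0.140) and neither was called in any comparison.

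Of the 15 kinases, STATs and inhibitors, none were called in any comparison. At an unadjusted p under 0.05, 3 of the 15 passed in each comparison by limma, a share at or below that of all genes. SOCS1, an inhibitor of JAK kinases, differed from parental A549 by 1.14 in Colony (limma adjusted p = 0.0896) and by 1.27 in SN (limma adjusted p = 0.136), with 2 of 3 parental arrays above background. CISH, a SOCS-family inhibitor of STAT5 signalling, differed by -0.79 in Colony (limma adjusted p = 0.0846). STAT5A differed by 0.98 between Colony and SN (limma adjusted p = 0.110).

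The direct STAT3 targets were evenly split in Colony against parental A549. Of 16 genes tested, 8 were higher and 8 lower, with a median log2 difference of -0.03, and 1 was called. This was ICAM1, an adhesion molecule, which was well above background on 2 of 3 Colony arrays and on no parental array (limma adjusted p = 0.0308). Set against the background level as for IL6, it was 1.12-fold higher in Colony. Because the Colony mean includes an array not above background, this is not a strict lower bound. IRF1, an interferon-response transcription factor, differed by 0.86 (limma adjusted p = 0.0544) and BCL3, an NF-kB cofactor, by -0.61 (limma adjusted p = 0.0584). MYC, a growth-promoting transcription factor, differed by 0.59 (limma adjusted p = 0.0320, under the fold threshold).

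In Colony against SN, 13 of the 16 target genes were higher, with a median of 0.14, and none were called. Over all genes 46.3% were higher. At an unadjusted p under 0.05, 7 of the 16 passed by limma, beside 20.8% of all genes. FGL1, a secreted fibrinogen-like protein of liver, differed by 1.01 (limma adjusted p = 0.115) and VEGFA, the vascular endothelial growth factor, by 0.50 (limma adjusted p = 0.197). In SN against parental A549, FGL1 fell by 1.37 (SE 0.14, limma adjusted p = 0.0274) and was the 1 gene called of 15 tested. BCL6, a transcriptional repressor, differed by -0.55 (limma adjusted p = 0.144).

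Acute phase genes, the classical hepatic targets of IL-6, included 2 that fell in SN. Of 10 tested in SN against parental A549, 7 had lower and 3 had higher values, with a median log2 difference of -0.83, and 2 were called. By limma, 7 of the 10 passed an unadjusted p under 0.05, beside 22.5% of all genes. FGA, a fibrinogen chain, fell by 1.32 (SE 0.17, limma adjusted p = 0.0374) and SERPINA1, the elastase inhibitor alpha-1 antitrypsin, fell by 1.73 (SE 0.22, limma adjusted p = 0.0346). FGA also differed by -0.90 between Colony and parental A549 (limma adjusted p = 0.0266, under the fold threshold). In Colony against parental A549, 8 of 10 were lower with a median of -0.19.

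The 1 acute phase gene called in Colony against parental A549 was SAA2, which fell. It was well above background on all parental arrays and on no Colony array, giving at least 2.80-fold lower (limma adjusted p = 0.0434). In SN it was also below background on all arrays, at least 3.02-fold lower than in parental A549 (limma adjusted p = 0.0602, not called). SAA1 differed by 1.30 the other way between Colony and parental A549 (limma adjusted p = 0.117), with 1 of 3 parental arrays above background. It was also higher in SN, with mean log2 levels of -2.69 in SN, -2.98 in Colony and -4.28 in parental A549. SAA1 and SAA2 are near-identical genes, so that probes for them may share signal and both values are uncertain. In Colony against SN none of 9 were called, with 6 higher and a median of 0.37, while SERPINA1 differed by 1.47 (limma adjusted p = 0.120) and FGB, another fibrinogen chain, by 0.90 (limma adjusted p = 0.145). By limma, 4 of these 9 passed an unadjusted p under 0.05, beside 20.8% of all genes.

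Immediate early genes rose in part in Colony cells. JUN, a component of AP-1, rose by 1.68 against parental A549 (SE 0.15, limma adjusted p = 0.0153) and EGR1, a growth factor-induced transcription factor, rose by 1.28 (SE 0.20, limma adjusted p = 0.0284). They were the 2 called of 9 tested, and the list median was 0.38. Against SN, JUN differed by 1.36 (limma adjusted p = 0.102) and ATF3, a stress-induced factor, by 1.12 (limma adjusted p = 0.192), with none called. By limma, 5 of the 9 passed an unadjusted p under 0.05, beside the same 20.8% of all genes. Between SN and parental A549, FOS differed by -0.62 (limma adjusted p = 0.194). FOSB was well above background on the 3 SN arrays and on no parental array, but so dimly that no bound on its fold can be given (limma adjusted p = 0.130). JUN, EGR1 and IL6 were among 529 probes called higher in Colony against parental A549, and no relation between them was tested.

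**Figure D4:**
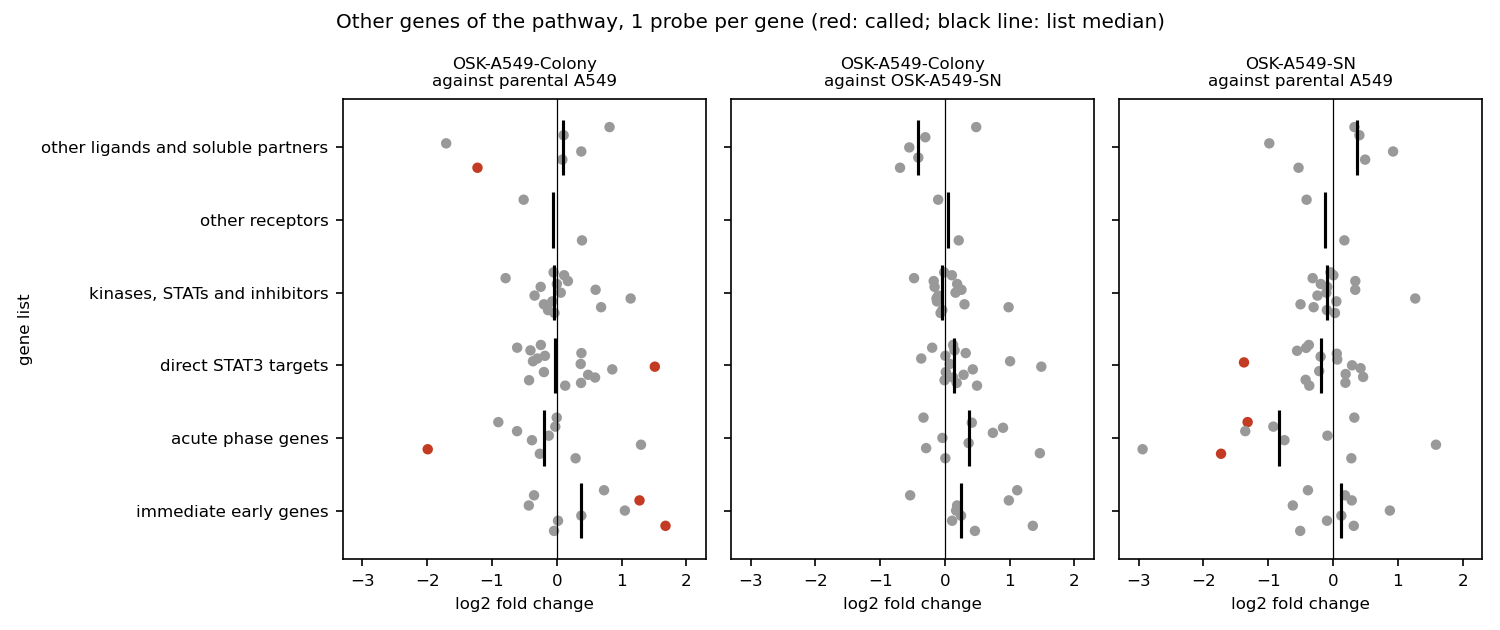
Log2 fold change of the other genes of the pathway (1 probe a gene, points) by list (rows) in the 3 comparisons (panels); red marks called genes and the black line is the list median. In Colony against parental A549 the direct STAT3 targets are split evenly around 0, and in SN against parental A549 the acute phase genes have a median of -0.83.

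The genes with the pattern most like each ligand were found as the smallest root mean square difference of the centred log2 values over the 9 arrays, among 20227 candidate probes. For IL6 they were KCNE4, a potassium channel subunit, RPS6KA2, a ribosomal S6 kinase, and CYP1A1, a xenobiotic-metabolising enzyme, at 0.76, 0.81 and 0.82. IL6 was not above background on 6 of the 9 arrays, so that these distances rest in part on values with no reliable order. For IL11 they were CA8, KIRREL3 and CATSPER1 at 0.30, 0.34 and 0.35.

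For CLCF1 they were TPM1, a tropomyosin, APOL6 and SQSTM1, an autophagy receptor, at 0.08, 0.11 and 0.11. TPM1 had a mean log2 level of 3.65 in parental A549, 4.84 in Colony and 4.27 in SN, with the same order as CLCF1. For the brighter LIF probe they were SHC1, DLX1 and CYP27B1 at 0.05, 0.06 and 0.06, and for the dimmer one AIFM3, WNK4 and CCDC136 at 0.11, 0.16 and 0.17. These distances describe likeness over the same 9 arrays and carry no test.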

How the data were processed

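RNA of 9 samples was hybridised by the authors to single-colour Agilent arrays, and the intensity of every spot was deposited from Agilent Feature Extraction 11.5.1.1, with background subtracted and no scaling across arrays. A deposited table of log2 values holds the same data up to 1 constant per array. The study's own analysis used GeneSpring GX.

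Control spots and spots with an outlier flag were left out, spots of a probe were averaged on the log2 scale, and the 75th percentile of each array was subtracted. A detected probe had a share of 0.5 or more of spots that were positive, significant and well above background. Genes were named by matching RefSeq accessions without versions, which named 30275 of the 32065 probes that carry one. Probe coordinates are not printed because the annotation of the array is on another build than the gene table.

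Each comparison was fitted with limma 3.58.1 in R 4.3.3 (lmFit, eBayes) on its own 6 arrays, using the probes that 1 or more of these arrays detected. Calls required an adjusted p (Benjamini-Hochberg) under 0.05 together with a fold change above 2. The fit was tested on simulated data. For lists, each gene was read by 1 probe, that with the highest mean. Named from each list were all called genes and otherwise the 2 with the largest difference among those well above background on all arrays of a group. Some other listed genes, such as MYC, PTPRC, FGA and CTF1 in Colony against parental A549, are given in addition. Not all values of the genes so named are reported here. The members and lists were chosen with earlier results of these data known. The number of arrays limits the precision.

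Alternatives were normexp background correction (offset 50, on median spot signals), quantile normalization, no and a stricter detection filter, all 9 arrays in 1 fit, slide or replicate number as a block, the deposited log2 table, another adjustment for Colony against SN, and leaving out each array.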

Additional observations from a re-analysis of the deposited data

How the results depend on the processing

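The number of called member probes in Colony against parental A549 was 2 and ranged from 0 to 3 when 1 array was left out. It was 0 without parental replicate 2 or Colony replicate 2, 1 without Colony replicate 1 or 3, and 3 without parental replicate 3, where IL11 was added. Whether same-numbered Colony and SN arrays are pairs was not settled. Their correlations were 0.25, 0.07 and 0.15, each of the 6 arrays correlated best with its own number, and their passage numbers match. The main fits treat the arrays as unpaired. With the replicate block, 0 member probes and 0 of all probes were called in each comparison. All probes called in Colony against parental A549 numbered 1143, and 334 with normexp, 583 with no detection filter and 0 to 1362 when 1 array was left out. In Colony against SN, 1 member probe (IL6) was called with the stricter filter, with all 9 arrays in 1 fit, and when p-values were adjusted only over the probes called against parental A549, which were selected on the same Colony arrays. The counts of all probes in that comparison were 139, 2 and 99 in these settings and 32 with normexp. In SN against parental A549, normexp gave 1 called member (IL11). All probes called there numbered 498, and 230 with normexp, 215 with no filter, 980 with the stricter filter, 1054 with all 9 arrays in 1 fit, 187 with slide as a block and 0 to 190 when 1 array was left out. Slide could not be a block in Colony against parental A549, where all arrays share 1 slide. Of 808 log2 differences of single member probes under the alternatives, 791 kept their side of the threshold, 9 lost the call and 8 gained it. No direction with an unadjusted p under 0.05 turned, and 28 smaller differences changed sign, the largest of them 0.31. Signal over background limits IL6, OSM, ICAM1, SAA1, SAA2, FOSB, SOCS1, CNTF, IL27, CD3E, KDR and LIFR, among others.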
